A study of Homo sapiens and Mus musculus with 8 samples.

Results

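The genes described here are 10 receptor tyrosine kinases of lung cancer, KIT, MET, EGFR, ERBB2, ERBB3, FGFR1, IGF1R, RET, AXL and NTRK2, chosen by symbol without reference to letter case. All 10 are among the 20863 genes of the human table, and 9 are among the 16833 genes of the mouse table, where Axl is not analysed here. RNA was sequenced from cultured small cell lung cancer (SCLC) cells, in 8 libraries. H146 (NCI-H146) is a human SCLC line, with 2 libraries of cells given decitabine at 0.5 µM and 2 of vehicle-treated cells, all labelled as sampled at 96 h. F1339 is a mouse SCLC line, with the same 2 arms of 2 libraries, sampled at 72 h. Each arm is in duplicate and whether the duplicates are separate cultures is not stated, so p-values measure the spread between these libraries, which may be technical. Decitabine is a deoxycytidine analog that traps the maintenance DNA methyltransferase DNMT1 once it is built into DNA, and the study asked what SCLC cells do when DNMT1 is depleted without killing them. Each species is represented by a single line, so a line and its species, its exposure time and its separately normalized table cannot be told apart.

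Receptor tyrosine kinases are membrane proteins that bind a growth factor outside the cell, pair up, and phosphorylate each other inside it, which recruits adaptors that feed the RAS and PI3K pathways. In SCLC the group is known for KIT, which many of these tumours express together with its ligand, stem cell factor. It is also known for FGFR1, which is amplified in a subset of them, and for RET, the receptor of the GDNF family ligands in neural and neuroendocrine cells. EGFR, MET and AXL are more typical of epithelial or mesenchymal lung cancers, and ERBB3 is a receptor with an impaired kinase that signals through partners such as ERBB2.

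Each library held 61364041 to 67892360 gene-assigned reads, and values are normalized counts in which 1 read is worth 0.960 to 1.08. Differences are on the log2(normalized count + 1) scale, decitabine minus vehicle, and each adjusted p is limma's after Benjamini-Hochberg adjustment across every gene tested in that line, with 0.05 as the threshold. Set against the labelled cell type, all 12 neuroendocrine markers of the list were present in both lines, with a summed level of 320331 and 305697 in decitabine, against 323021 and 322761 in vehicle in H146 and of 310723 and 230627 in decitabine, against 401242 and 278929 in vehicle in F1339. Some markers of other cells or states were also called in H146, where 27.7% of all genes were called. Of 11 non-neuroendocrine markers 4 were called higher and 0 lower (36.4% called), with sums of 16471 and 14944 in decitabine, against 7619.9 and 7401 in vehicle, and of 5 endothelial markers 4 were higher and 0 lower (80%), with sums of 1403 and 1434 in decitabine, against 493 and 583 in vehicle. The 8 fibroblast markers (5 higher, 1 lower, 75%) summed to 13931 and 12231 in decitabine, against 10252 and 9538 in vehicle, the 5 lung epithelial markers (3 higher, 0 lower, 60%) to 8117 and 7656 in decitabine, against 4331 and 3975 in vehicle and the 6 immune markers (2 higher, 1 lower, 50%) to 735 and 777 in decitabine, against 684 and 644 in vehicle. Single genes, named after their values were seen, made up most of some sums. ANXA2 had 14874 and 13314 in decitabine, against 6526 and 6518 in vehicle, of the non-neuroendocrine sums. THY1 had 12187 and 10639 in decitabine, against 9052 and 8448 in vehicle, of the fibroblast sums. These sums therefore do not give the level of each list as a whole. In F1339 the libraries of an arm stood apart from each other. Of 12512 genes with a mean of at least 100, 708 differed by more than 1 on the log2 scale between the decitabine libraries and 892 between the vehicle libraries, while in H146 the counts were 3 and 81 of 14129. The part that fewer cells of a kind, as against less RNA per cell, had in any difference cannot be told apart in bulk RNA.

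In H146, ERBB3 and ERBB2 rose and KIT and RET fell after decitabine, while the other 6 receptors did not pass the test. The 4 called members are 40% of the 10, against 27.7% of all 20783 genes tested (15.4% higher and 12.3% lower), so many genes of the line passed the test, and with 10 receptors the share is read as near that background. The median log2 difference of the 10 was −0.18, against −0.01 over all genes. In edgeR on the recovered reads 15.5% of all genes were higher and 13.7% lower, with the same 4 members called, and in DESeq2 12.9% and 10.5%, again with these 4. The arms did not overlap for 6 members, 2 higher and 4 lower, which is also the case for 62.1% of all genes (31.5% higher and 30.6% lower).

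ERBB3, the kinase-impaired receptor for neuregulins (chr12:56076799-56103505, GRCh38), had 1647 and 1739 normalized counts in the decitabine libraries, against 747 and 769 in the vehicle libraries. All 4 libraries stood in 2 tight pairs, and the mean was 2.23-fold higher in decitabine (log2 difference 1.16 ± 0.11 SE, adjusted p 1.73e-08). ERBB2, the receptor with no known ligand of its own that partners ERBB3 (chr17:39687914-39730426), had 1137 and 1135 in the decitabine libraries, against 783 and 895 in the vehicle libraries. Its decitabine libraries were nearly equal and both above vehicle, with a 1.35-fold higher mean (log2 difference 0.44 ± 0.12 SE, adjusted p 0.00678). The call of ERBB2 is lost without the variance trend (0.105), decitabine replicate 1 (0.0997), decitabine replicate 2 (0.0946) or vehicle replicate 1 (0.058). In GENCODE 29, 5.53% of the exon bases of ERBB2 are shared with MIEN1 on the other strand and 1.88% with PGAP3, and strandedness is not given in the sources used here, so a part of these reads cannot be told apart. MIEN1 had 7125 and 6089 normalized counts in decitabine, against 6632 and 6774 in vehicle.

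KIT, the stem cell factor receptor (chr4:54657918-54740715), fell. It had 818 and 905 in the decitabine libraries, against 1682 and 1676 in the vehicle libraries, so the vehicle libraries were almost identical and both decitabine libraries lay far under them. The mean of KIT in decitabine was 0.513 times that in vehicle (log2 difference −0.96 ± 0.11 SE, adjusted p 3.59e-07). KIT is also a mast cell gene, and the mast cell markers CPA3 and MS4A2 were not among the listed genes of either line. RET (chr10:43077027-43130351) had 4201 and 4488 in the decitabine libraries, against 6943 and 6444 in the vehicle libraries, again with no overlap of the arms, and its decitabine mean was 0.649 times the vehicle mean (log2 difference −0.62 ± 0.10 SE, adjusted p 2.91e-05). The calls of ERBB3, KIT and RET were kept in each of the 14 other settings tried, with adjusted p values of at most 0.0131 for ERBB3, 0.0222 for KIT and 0.0486 for RET. The part that the moving non-neuroendocrine and endothelial markers had in these changes was not tested.

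**Figure D1:**
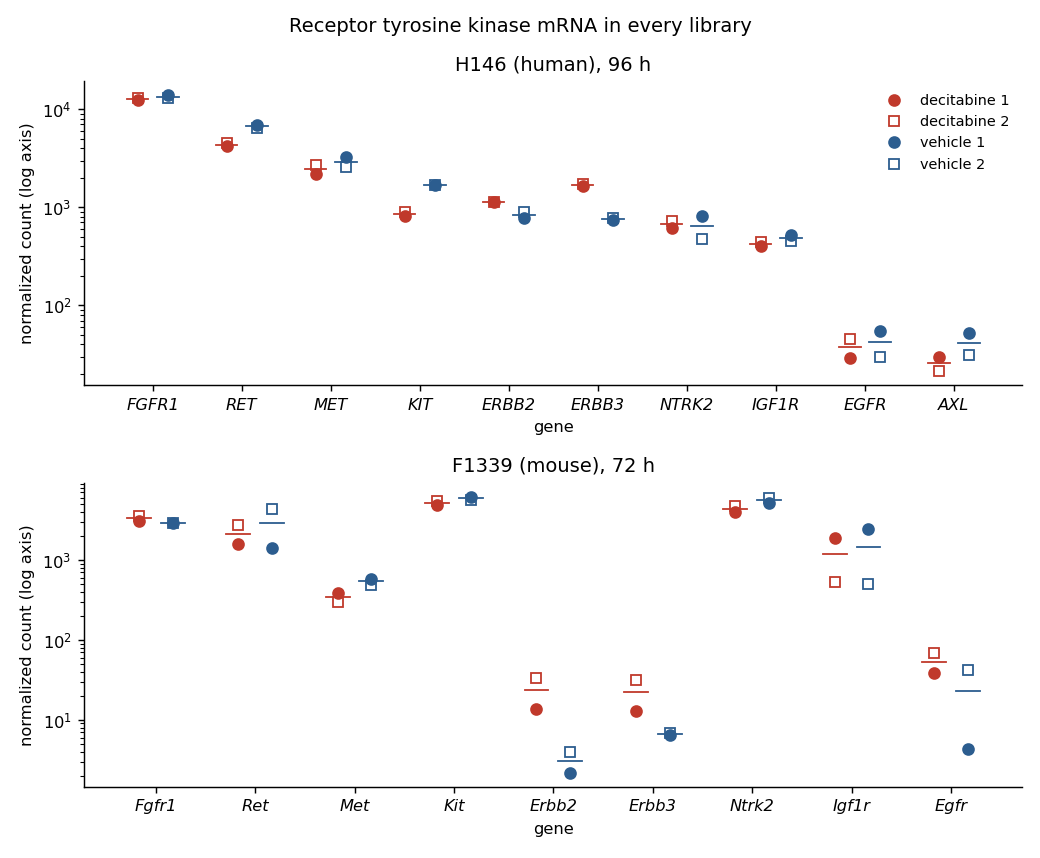
Normalized counts (log axes) of the receptors in each library of H146 (top, human) and F1339 (bottom, mouse), decitabine in red left of vehicle in blue, with a circle for replicate 1, a square for replicate 2 and a short line at the mean of the arm. ERBB3 is higher and KIT and RET are lower in both decitabine libraries of H146, while Igf1r and Ret of F1339 split by replicate number in both arms.

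The sequence before the transcription start is shown for the called members for which RefSeq's GRCh38.p14 promoter table holds an entry, KIT, RET and ERBB2, because the drug acts on methylation of CpG sites, and for AXL as a member with few of them. Each line gives the 250 bases upstream of a start annotated in RefSeq on the plus strand, 5′ to 3′, with every CG in capitals. The GENCODE 29 start of each of these genes lies inside its window, so the last bases shown are within the gene by that annotation.
KIT, chr4:54657707-54657956: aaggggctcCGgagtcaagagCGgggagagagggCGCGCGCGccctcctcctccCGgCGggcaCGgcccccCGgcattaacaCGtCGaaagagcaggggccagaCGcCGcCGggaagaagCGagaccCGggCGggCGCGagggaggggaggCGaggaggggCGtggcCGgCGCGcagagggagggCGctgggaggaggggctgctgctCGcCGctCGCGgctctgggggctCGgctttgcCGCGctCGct
RET, chr10:43076819-43077068: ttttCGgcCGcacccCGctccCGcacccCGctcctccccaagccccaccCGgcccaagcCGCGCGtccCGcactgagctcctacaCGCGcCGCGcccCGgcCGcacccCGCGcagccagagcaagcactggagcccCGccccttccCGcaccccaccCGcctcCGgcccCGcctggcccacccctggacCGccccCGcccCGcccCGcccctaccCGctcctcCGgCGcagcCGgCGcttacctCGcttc
ERBB2, chr17:39687844-39688093: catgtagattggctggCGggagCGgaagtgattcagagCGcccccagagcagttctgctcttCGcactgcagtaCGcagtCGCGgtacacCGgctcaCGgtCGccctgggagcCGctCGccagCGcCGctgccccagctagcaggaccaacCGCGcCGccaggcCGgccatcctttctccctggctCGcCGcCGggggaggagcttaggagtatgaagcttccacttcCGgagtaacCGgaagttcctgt
AXL, chr19:41218973-41219222: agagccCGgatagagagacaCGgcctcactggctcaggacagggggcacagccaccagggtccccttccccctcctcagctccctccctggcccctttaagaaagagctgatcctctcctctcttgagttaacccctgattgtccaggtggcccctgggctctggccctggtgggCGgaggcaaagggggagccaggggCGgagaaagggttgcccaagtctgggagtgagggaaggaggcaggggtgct
The KIT window holds 34 CG, more than 93.2% of the 35116 windows of this length, and the RET window holds 33 (more than 91.9%). ERBB2 has 23 in its window (more than 74.2%), and the AXL window 4 (more than 29.3%), where the median over all windows is 11. At least 1 CG, which reads the same on both strands, is present in 93.9% of all windows. A second annotated start of RET has 6 CG in its window and one of AXL has 13. At the RefSeq starts shown, the KIT and RET windows are denser in CG than the ERBB2 window. ERBB3, the other member that rose, has no entry, so these windows do not compare CG density with the direction of change. The GENCODE 29 start of ERBB2, at 39687914, lies early in its window. Most of that window is thus inside the gene by that annotation, and the windows are not alike in this. The GC box GGGCGG, searched on both strands, is present in the KIT, RET and AXL windows shown, absent from these letters of the ERBB2 window, and present in 42.6% of all windows; a GC box on the plus strand includes a CG. Among the members that were not called, the IGF1R window holds 48 CG (more than 99.7% of windows), the first EGFR window 25 and the MET window 24. No methylation was measured in these data.

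Among the 10 receptors, FGFR1 and RET had the highest levels per kilobase of exon in vehicle-treated H146 cells, and AXL and EGFR the lowest. In normalized counts per kilobase, FGFR1 had 899 and 936 in decitabine, against 1013 and 933 in vehicle, and RET had 608 and 649 in decitabine, against 1005 and 932 in vehicle, so that their ranges overlapped in vehicle and were apart in decitabine. MET followed with 311 and 382 in decitabine, against 460.0 and 364 in vehicle, then KIT with 147 and 163 in decitabine, against 302 and 301 in vehicle. ERBB3 had 182 and 192 in decitabine, against 82.7 and 85.1 in vehicle, and ERBB2 had 110.2 and 110.0 in decitabine, against 75.9 and 86.7 in vehicle. In vehicle KIT was above ERBB3, whose range overlapped that of ERBB2, whereas in decitabine ERBB3 was above KIT and also above ERBB2. IGF1R had 29.2 and 31.4 in decitabine, against 37.3 and 32.8 in vehicle, and NTRK2 had 30.01 and 35.9 in decitabine, against 40.4 and 23.5 in vehicle, and these 2 receptors were not separated in either arm. AXL stood at 5.82 and 4.12 in decitabine, against 10.1 and 5.97 in vehicle, and EGFR at 2.32 and 3.63 in decitabine, against 4.33 and 2.38 in vehicle. FGFR1 made up 38.7% and 37.3% of the summed level per kilobase of the 10 receptors in the decitabine libraries, against 33.4% and 33.7% in the vehicle libraries. Lengths are unions of all GENCODE 29 exons, so they count the exons of minor isoforms too. This order is a description with no test.

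**Figure D2:**
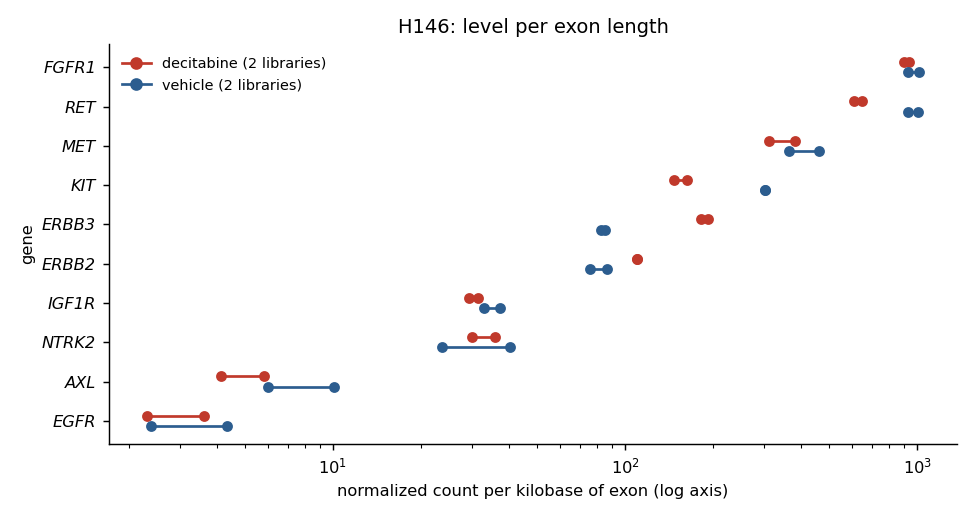
Normalized counts per kilobase of exon (log axis) of the 10 receptors in H146, decitabine in red above vehicle in blue, with a point for each of 2 libraries per arm joined by a line. FGFR1 and RET lead in vehicle at 932 to 1013, and ERBB3 moves above KIT in decitabine.

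The 6 other receptors of H146 were not called, and their intervals give the sizes that remain possible. FGFR1, the fibroblast growth factor receptor, had 12439.9 and 12955 in the decitabine libraries, against 14027 and 12921 in the vehicle libraries, with a log2 difference of −0.09 (95% interval −0.30 to 0.13, adjusted p 0.593). Its arms overlapped, and the interval leaves little room for a large change of this abundant mRNA. MET, the hepatocyte growth factor receptor, had 2189 and 2688 in the decitabine libraries, against 3238 and 2561 in the vehicle libraries. Vehicle replicate 1 was the highest and decitabine replicate 1 the lowest, the arms overlapped, and the fit gave a log2 difference of −0.25 (−0.49 to −0.003, adjusted p 0.127), and MET is called lower without vehicle replicate 2 (−0.42, adjusted p 0.00913). IGF1R, the receptor of insulin-like growth factors, had 407 and 438 in the decitabine libraries, against 521 and 458 in the vehicle libraries. The arms of IGF1R were apart, but the difference was small against its spread (log2 −0.21, −0.51 to 0.09, adjusted p 0.302). NTRK2, the BDNF receptor TrkB, had 611 and 730.4 in the decitabine libraries, against 823 and 479 in the vehicle libraries. Its 2 vehicle libraries enclosed both decitabine libraries, and the log2 difference was 0.09 (−0.27 to 0.45, adjusted p 0.753). NTRK2 is called higher without vehicle replicate 1 (0.48, adjusted p 0.012) and turns to −0.30 without vehicle replicate 2, so 1 vehicle library sets its direction.

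EGFR and AXL were low in H146, at 21.3 to 54.2 normalized counts in a library. EGFR had 29 and 45.4 in the decitabine libraries, against 54.2 and 29.8 in the vehicle libraries, and AXL had 30.00 and 21.3 in the decitabine libraries, against 52.2 and 30.8 in the vehicle libraries. AXL, the receptor of GAS6, was lower in both decitabine libraries, but neither gene was called (EGFR log2 difference −0.14, −0.90 to 0.61; AXL −0.65, −1.43 to 0.13; adjusted p 0.813 and 0.22). From 52 decitabine and 82 vehicle reads the ratio for AXL was 0.618, with a 95% counting interval of 0.428 to 0.885 that covers counting error only and not the spread between cultures.

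**Figure D3:**
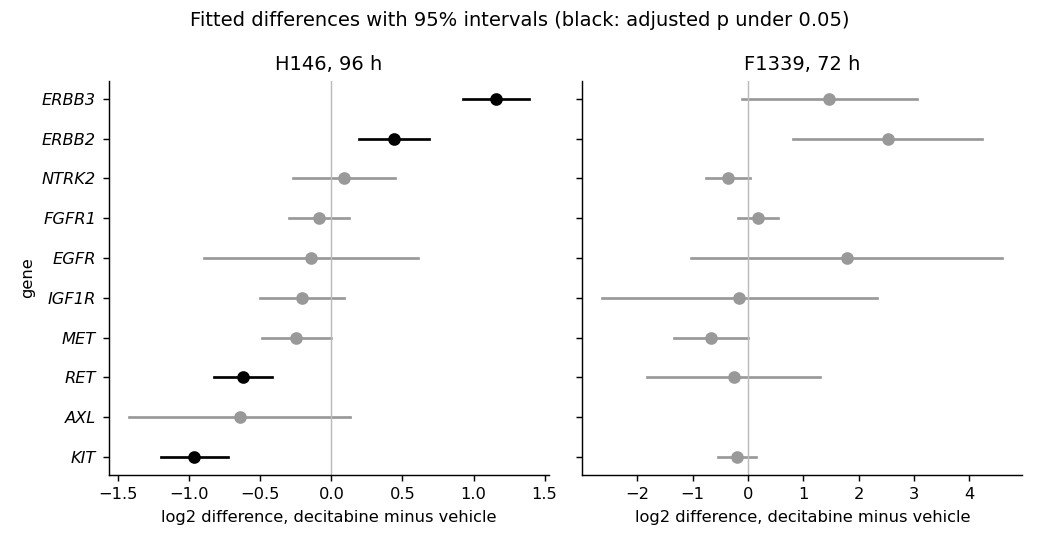
Fitted log2 differences, decitabine minus vehicle, of the receptors in H146 (left) and F1339 (right), with 95% intervals from limma; black marks an adjusted p under 0.05, and the horizontal scales differ. ERBB3, ERBB2, RET and KIT are called in H146, and no receptor is called in F1339, where the intervals of Igf1r, Egfr and Ret are wide.

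The authors' deposited table gives the same 4 members an adjusted p under 0.05 in H146, and its fold changes run the other way, as vehicle over decitabine. It calls 4854 of the 20863 genes listed for H146. It rests on the same libraries, so it is not a second measurement. In the authors' deposited table the log2 fold change is −1.16 for ERBB3 (adjusted p 2.14e-18) and −0.44 for ERBB2 (0.00821). For KIT the authors' deposited table gives 0.96 (adjusted p 1.08e-12), and for RET 0.62 (1.87e-08). In F1339 the authors' deposited table calls 107 genes and none of the 9 receptors.

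In F1339, limma called 0 of the 9 tested receptors and 0 of all 16680 genes (0%), and edgeR and DESeq2 on the recovered reads also called 0 receptors, with 0% and 0.641% of all genes. Without adjustment 1 receptor, Erbb2, had a p under 0.05, as did 5.59% of all genes; in H146 these were 5 receptors and 37.8% of all genes. With the replicate number as a block, 3 receptors were called, 1 higher (Erbb2) and 2 lower (Met and Ntrk2), beside 7.94% of all genes (4.66% higher and 3.29% lower), but the labels do not say that a number pairs libraries. The arms did not overlap for 6 receptors, against 35.9% of all genes (17.9% higher and 18% lower), with Erbb2, Erbb3 and Fgfr1 higher and Kit, Met and Ntrk2 lower in both decitabine libraries. Erbb2 and Erbb3 passed the filter on low values only through the decitabine arm. Their separation and its direction were thus fixed in advance and carry no weight here, nor does the direction of Erbb2 in the counts above. Whether the lines differ was not tested, since each table was normalized on its own.

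Erbb2 and Erbb3 were barely expressed in F1339. Erbb2 had 13.8 and 33.6 in the decitabine libraries, against 2.16 and 3.90 in the vehicle libraries, and both genes pass the filter on low values through the decitabine arm only, which had to be the higher one. From 49 decitabine and 6 vehicle reads the ratio of Erbb2 was 7.81 (95% counting interval, here too for counting error only, 3.34 to 22.3), with a fitted log2 difference of 2.52 ± 0.65 SE (adjusted p 0.89). Erbb3 had 12.8 and 31.7 in the decitabine libraries, against 6.48 and 6.83 in the vehicle libraries, with 46 and 13 reads, a ratio of 3.34 (1.77 to 6.74) and a log2 difference of 1.47 ± 0.61 SE (adjusted p 0.89). Decitabine replicate 2 was 2.44 times replicate 1 for Erbb2 and 2.48 times for Erbb3. Egfr had 38.3 and 68.1 in the decitabine libraries, against 4.32 and 41.95 in the vehicle libraries, so vehicle replicate 2 lay between the decitabine libraries and vehicle replicate 1 stood alone near 0 (log2 difference 1.79, −1.02 to 4.59).

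Kit, Ntrk2 and Fgfr1 were the steadiest receptors of F1339. Kit had 4870.0 and 5447 in the decitabine libraries, against 6217 and 5619 in the vehicle libraries, lower in both but by little (log2 difference −0.20, −0.54 to 0.15, adjusted p 0.905). Ntrk2 had 3999 and 4733 in the decitabine libraries, against 5228 and 6016 in the vehicle libraries (log2 difference −0.37, −0.76 to 0.03). Fgfr1 had 3075 and 3538 in the decitabine libraries, against 2939 and 2893 in the vehicle libraries (log2 difference 0.18, −0.18 to 0.54). Met, with 387 and 295 in the decitabine libraries, against 584 and 492 in the vehicle libraries, had the lowest log2 difference of the 9, −0.66 (−1.33 to 0.01, adjusted p 0.89). Without a block for the replicate number limma called none of these 4 receptors; with it Met (adjusted p 0.0339) and Ntrk2 (0.0444) are called lower.

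Igf1r and Ret of F1339 differed more between libraries of an arm than between arms. Igf1r had 1877 and 525 in the decitabine libraries, against 2433 and 501 in the vehicle libraries, so that replicate 1 was 3.57 times replicate 2 in decitabine and 4.85 times in vehicle. Ret went the other way, with 1579.8 and 2704 in the decitabine libraries, against 1393 and 4382 in the vehicle libraries, and replicate 2 was 1.71 times replicate 1 in decitabine and 3.15 times in vehicle. For Igf1r the 95% interval of the log2 difference between arms was −2.63 to 2.32, and for Ret it was −1.82 to 1.30. The libraries numbered 2 also had less of the neuroendocrine markers and more of the 12 non-neuroendocrine markers, which summed to 8283 and 16681 in decitabine, against 4784 and 11351 in vehicle, and the part of this in the values of Igf1r and Ret was not tested. Other genes of the receptor pathways split by number as well. The growth factor gene Igf2, a ligand of IGF1R, had 4111 and 215 in the decitabine libraries, against 4356 and 71.2 in the vehicle libraries, and Igfbp3, which binds insulin-like growth factors, had 4815 and 1213 in the decitabine libraries, against 8295 and 1742 in the vehicle libraries. In both of these genes replicate 1 was the higher library of its arm, as for Igf1r.

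**Figure D4:**
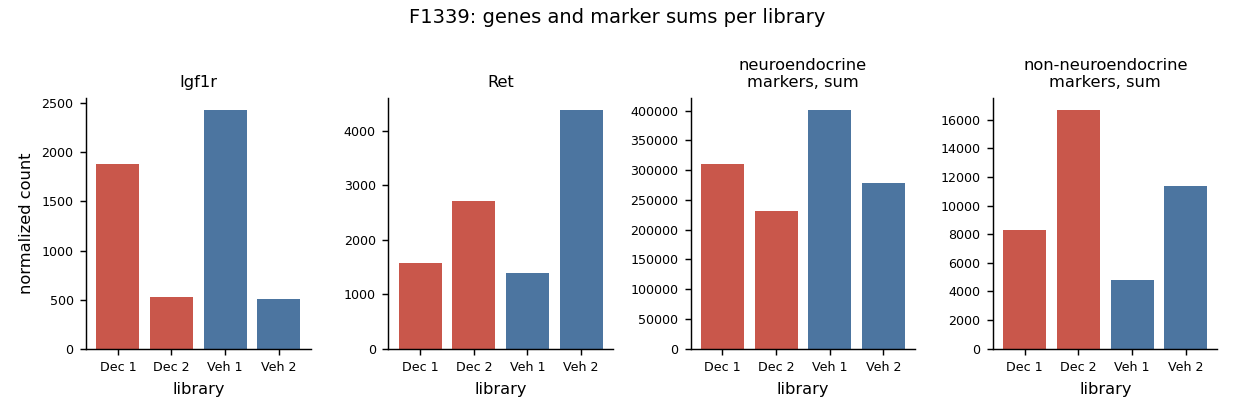
Normalized counts of Igf1r and Ret and summed counts of 12 neuroendocrine and 12 non-neuroendocrine markers in the 4 F1339 libraries, decitabine (Dec) in red left of vehicle (Veh) in blue; every vertical axis starts at 0. In both arms library 1 has more Igf1r and neuroendocrine signal, and less Ret and non-neuroendocrine signal, than library 2.

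Among the ligands of the receptors 2 were called higher and 2 lower in H146, of 18 tested and 32 named (22.2% called; median log2 difference 0.17, against −0.01 over all genes). HGF, EGF, BDNF, IGF1 and GDNF are not among the genes of the table analysed here. GAS6, the ligand of AXL, had 5419 and 5063 in the decitabine libraries, against 6925 and 7461 in the vehicle libraries and fell (log2 difference −0.46 ± 0.10 SE, adjusted p 0.00102). FGF5, an FGFR1 ligand, fell, with 460.0 and 459 in the decitabine libraries, against 824 and 653 in the vehicle libraries (−0.67 ± 0.14 SE, adjusted p 0.000625). TGFA, a ligand of EGFR, rose at a low level, with 43 and 70.5 in the decitabine libraries, against 29.1 and 26.7 in the vehicle libraries (0.96 ± 0.34 SE, adjusted p 0.0395). The call of TGFA is lost with libraries scaled to equal totals (0.0629) or DESeq2 (0.134) and without the variance trend (0.107), decitabine replicate 1 (0.0784), decitabine replicate 2 (0.422) or vehicle replicate 2 (0.0509). GAS6 is no longer called without the variance trend (0.0861) or decitabine replicate 2 (0.0504), nor FGF5 without the variance trend (0.0755).

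Several partners of the receptors, chosen after their values were seen, were not called. The KIT ligand gene KITLG had 3949 and 4753 in the decitabine libraries, against 4126 and 3571 in the vehicle libraries (log2 difference 0.17, −0.05 to 0.40). NRG1, a neuregulin that binds ERBB3, had 3115 and 3233 in the decitabine libraries, against 3037 and 2682 in the vehicle libraries (0.15, −0.06 to 0.36). Of the co-receptors through which RET binds its ligands, GFRA3, for artemin, had 1179 and 979 in the decitabine libraries, against 1024 and 847 in the vehicle libraries, and GFRA1, for GDNF, had 16 and 9.66 in the decitabine libraries, against 20.1 and 22.6 in the vehicle libraries. NTF3, a neurotrophin, had 1366 and 1219 in the decitabine libraries, against 1171 and 1218 in the vehicle libraries, and IGF2 had 38 and 22.2 in the decitabine libraries, against 12.04 and 23.6 in the vehicle libraries, so that IGF2 stood near 0 in H146. FGF18, also chosen after its values were seen, was the other ligand that rose, with 54 and 54.1 in decitabine, against 25.1 and 17.4 in vehicle (adjusted p 0.00642), a call lost without decitabine replicate 1 (0.107) or decitabine replicate 2 (0.103).

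Among 24 other receptor tyrosine kinases tested in H146, 5 were higher and 2 lower, or 29.2%, close to the 27.7% of all genes. ERBB4, the neuregulin receptor with an active kinase, fell, with 1367 and 1334 in the decitabine libraries, against 2235 and 2183 in the vehicle libraries (log2 difference −0.71 ± 0.10 SE, adjusted p 1.11e-05). The per-kilobase ratio of ERBB3 to ERBB4 was 1.74 and 1.88 in decitabine, against 0.481 and 0.507 in vehicle, so the order of these neuregulin receptors turned over. PDGFRA, a platelet-derived growth factor receptor, rose to 2843 and 3354 in decitabine, against 2271 and 2076 in vehicle (0.51 ± 0.11 SE, adjusted p 0.000755), and LTK fell (752 and 730.4 in decitabine, against 941 and 993 in vehicle; −0.38, adjusted p 0.0186). The call of PDGFRA is lost without the variance trend (0.102) or decitabine replicate 2 (0.0714), and that of LTK without the variance trend (0.105), decitabine replicate 1 (0.113), decitabine replicate 2 (0.147) or vehicle replicate 2 (0.0747). The steepest rise of the list, chosen after its values were seen, was that of MST1R, which encodes RON, the closest relative of MET. It had 92 and 133 in the decitabine libraries, against 2.01 and 0 in the vehicle libraries, which is 230 against 2 reads, so that the ratio was 112, with a 95% counting interval, for counting error only, of 30.7 to 933 and an adjusted p of 7.37e-09. MST1R passed the filter on low values only through the decitabine arm, which had to be the higher one. MERTK, TEK and TIE1, chosen after their values were seen, were the other 3 that rose. MERTK had 160.0 and 165 in decitabine, against 116 and 99.6 in vehicle (adjusted p 0.0392), a call lost with libraries scaled to equal totals (0.0542) or DESeq2 (0.117) and without the variance trend (0.0682), decitabine replicate 1 (0.227), decitabine replicate 2 (0.259) or vehicle replicate 2 (0.109). TEK and TIE1 are receptors of endothelial cells. TEK had 55 and 51.2 in decitabine, against 10.03 and 23.6 in vehicle (adjusted p 0.0023; lost without the variance trend, decitabine replicate 1 or decitabine replicate 2, at 0.0839, 0.097 and 0.0769), and TIE1 had 70.00 and 57 in decitabine, against 27.1 and 20.5 in vehicle (0.00302; lost without decitabine replicate 1 or decitabine replicate 2, at 0.116 and 0.0537). TEK is itself 1 of the 5 endothelial markers tested in H146, so it is counted among them above. Of the others, all but VWF are named after their values were seen. PECAM1 (adjusted p 6.8e-10), VWF (3.5e-07) and CLDN5 (0.0192) rose too, while CDH5 (0.13) was not called. KDR and EMCN are not among the listed genes of H146. The part of these markers in the values of TEK and TIE1 was not tested.

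Co-receptors had 4 of 14 tested genes higher and 0 lower (28.6% called) in H146. NRP1, the neuropilin that binds semaphorins and VEGF, had 1047 and 1149.7 in the decitabine libraries, against 519 and 437 in the vehicle libraries (log2 difference 1.20 ± 0.13 SE, adjusted p 9.59e-08). Of the heparan sulfate proteoglycan genes, SDC3 rose, with 5313 and 5212 in decitabine, against 3015 and 2755 in vehicle (adjusted p 2.4e-07), and so did SDC2, with 12071 and 12412 in decitabine, against 10302 and 9278 in vehicle (0.019). NRP2, chosen after its values were seen, was the fourth that rose (0.55, adjusted p 0.0061). The call of SDC2 is lost without the variance trend (0.159), decitabine replicate 1 (0.113), decitabine replicate 2 (0.15) or vehicle replicate 2 (0.175), and that of NRP2 without the variance trend (0.0743), decitabine replicate 1 (0.0528) or decitabine replicate 2 (0.171).

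The adaptors that link receptors to their pathways had 4 of 24 tested genes higher and 0 lower (16.7% called), a share below that of all genes. GRB7, an adaptor that binds ERBB2, was chosen after its values were seen and had 842 and 817 in the decitabine libraries, against 541 and 526 in the vehicle libraries (log2 difference 0.64 ± 0.13 SE, adjusted p 0.000415). GRB7 was called in each of the 14 other settings. The 3 called adaptors of higher mean were SOS2, an exchange factor of RAS, FRS3, a substrate of FGF receptors, and the docking protein gene DOK1. SOS2 (0.36, adjusted p 0.00974) is no longer called without the variance trend (0.138) or decitabine replicate 2 (0.159). FRS3 (0.35, 0.0135) is lost without the variance trend (0.128), decitabine replicate 1 (0.157), decitabine replicate 2 (0.0657) or vehicle replicate 2 (0.0647), and DOK1 (0.46, 0.0031) without the variance trend (0.122), decitabine replicate 1 (0.0612), decitabine replicate 2 (0.0867) or vehicle replicate 2 (0.062).

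In H146 the RAS, RAF, MEK and ERK list had 3 of 20 tested genes higher and 2 lower (25% called). MAPK3, which encodes ERK1, rose, with 5803 and 5125 in the decitabine libraries, against 3858 and 3303 in the vehicle libraries (log2 difference 0.61 ± 0.10 SE, adjusted p 8.16e-05), as did the scaffold gene KSR1 (0.66, adjusted p 9.66e-05), and both calls are lost without the variance trend (0.0772 and 0.0754). ARAF, a RAF kinase, fell (−0.29, adjusted p 0.0345), a call lost without the variance trend (0.221), decitabine replicate 1 (0.173), decitabine replicate 2 (0.188) or vehicle replicate 1 (0.319). The other 2 called genes, chosen after their values were seen, were RRAS, higher (0.89, 0.000619; lost without decitabine replicate 1 at 0.0958), and KSR2, lower (−0.51, 0.00204; lost without the variance trend or decitabine replicate 1, at 0.0903 and 0.0826).

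The PI3K and AKT list had 2 of 14 tested genes higher and 1 lower (21.4% called) in H146. PIK3R3, a regulatory subunit of PI3K, rose (0.34, adjusted p 0.0123), a call lost without the variance trend (0.146), decitabine replicate 1 (0.0731), decitabine replicate 2 (0.133) or vehicle replicate 2 (0.112). PIK3CD, a catalytic subunit, rose (0.38, 0.0239; lost without the variance trend, decitabine replicate 1, decitabine replicate 2 or vehicle replicate 2, at 0.11, 0.216, 0.111 and 0.0716). The kinase gene AKT2 fell (−0.34, 0.012; lost without the variance trend, decitabine replicate 1, decitabine replicate 2 or vehicle replicate 1, at 0.12, 0.105, 0.101 and 0.0644). None of these 3 calls stands without either decitabine library.

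Negative regulators had 5 of 29 tested genes higher and 3 lower (27.6% called) in H146. LRIG3 of the LRIG membrane proteins fell, with 2141 and 2435 in the decitabine libraries, against 3650.0 and 3816 in the vehicle libraries (log2 difference −0.71 ± 0.10 SE, adjusted p 8.61e-06). GRB10, an adaptor that dampens IGF1R and insulin receptor signalling, rose (0.33, adjusted p 0.0161), a call lost without the variance trend (0.168), decitabine replicate 2 (0.213) or vehicle replicate 2 (0.0776). ERRFI1, an inhibitor of the ERBB receptors chosen after its values were seen, rose, with 1145 and 1312 in the decitabine libraries, against 888 and 746 in the vehicle libraries (adjusted p 0.000712; lost without the variance trend or decitabine replicate 2, at 0.0904 and 0.0774). Of the others called, chosen likewise, SH2B3 (0.66, 6.18e-05) and DOK2 (3.81e-05; 81 against 4 reads, a ratio of 19.4 with a counting interval, for counting error only, of 7.3 to 73) were higher. DOK2 too passed the filter on low values only through its decitabine arm. CBLC (−0.39, 0.0277) and SPRY1 (−0.35, 0.0488) were lower. SH2B3 is lost without the variance trend (0.0649), DOK2 without the variance trend (0.0584), CBLC without the variance trend (0.0987), decitabine replicate 1 (0.147), decitabine replicate 2 (0.177) or vehicle replicate 2 (0.0757), and SPRY1 with a pseudocount of 0.5 (0.0502), equal upper quartiles (0.0688), libraries scaled to equal totals (0.0848) or DESeq2 (0.0898) and without the variance trend (0.171), decitabine replicate 1 (0.373), decitabine replicate 2 (0.101) or vehicle replicate 1 (0.143).

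Genes that respond to ERK signalling had 3 of 15 tested genes higher and 2 lower (33.3% called) in H146. Their median log2 difference was 0.10, against −0.01 over all genes. The ETS factor genes ETV4 and ETV5, both used as readouts of FGF and ERK activity, fell. Elsewhere on the list, DUSP6 (0.25, adjusted p 0.0942) and SPRY4 (−0.44, 0.0652), chosen after their values were seen, went opposite ways and were not called. ETV4 had 704 and 684 in the decitabine libraries, against 1266 and 1202 in the vehicle libraries (log2 difference −0.83 ± 0.12 SE, adjusted p 6.31e-06), and ETV5 had 579 and 596 in the decitabine libraries, against 1091 and 1012 in the vehicle libraries (−0.84 ± 0.12 SE, adjusted p 9.61e-06). DUSP4, a phosphatase gene that is also among the negative regulators, rose, with 12825 and 12638 in the decitabine libraries, against 10972 and 9598 in the vehicle libraries (0.31, adjusted p 0.0266), a call lost without the variance trend (0.186), decitabine replicate 1 (0.177), decitabine replicate 2 (0.143) or vehicle replicate 2 (0.259). IER3 (0.69, 0.00905; lost without decitabine replicate 1 or decitabine replicate 2, at 0.164 and 0.114) and EPHA4 (0.59, 0.00246; lost without the variance trend or decitabine replicate 2, at 0.067 and 0.108), chosen after their values were seen, were also higher.

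IGF binding proteins, which hold insulin-like growth factors outside the cell, had 3 of 6 tested genes higher and 1 lower (66.7% called) in H146. IGFBP2 had 20325 and 16760.2 in the decitabine libraries, against 11731 and 10620.1 in the vehicle libraries (adjusted p 1.85e-05; lost without the variance trend at 0.0615), and IGFBP4 had 4030.0 and 3475 in the decitabine libraries, against 2248 and 2009 in the vehicle libraries (adjusted p 1.83e-06). IGFBP3 fell to 62 and 45.4 in decitabine, against 124 and 130.4 in vehicle (adjusted p 0.000608; lost without decitabine replicate 2 at 0.064). IGFBP6, chosen after its values were seen, was the third that was higher, with 97 and 60.9 in decitabine, against 48.1 and 39 in vehicle (0.0472; lost with a pseudocount of 0.5, libraries scaled to equal totals or DESeq2 and without the variance trend, decitabine replicate 1, decitabine replicate 2 or vehicle replicate 2, at 0.0503, 0.0684, 0.143, 0.146, 0.499, 0.0862 and 0.0978). Over all 157 tested genes of the pathway lists 30 were higher and 13 lower, 27.4% called, against 27.7% of all genes.

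**Figure D5:**
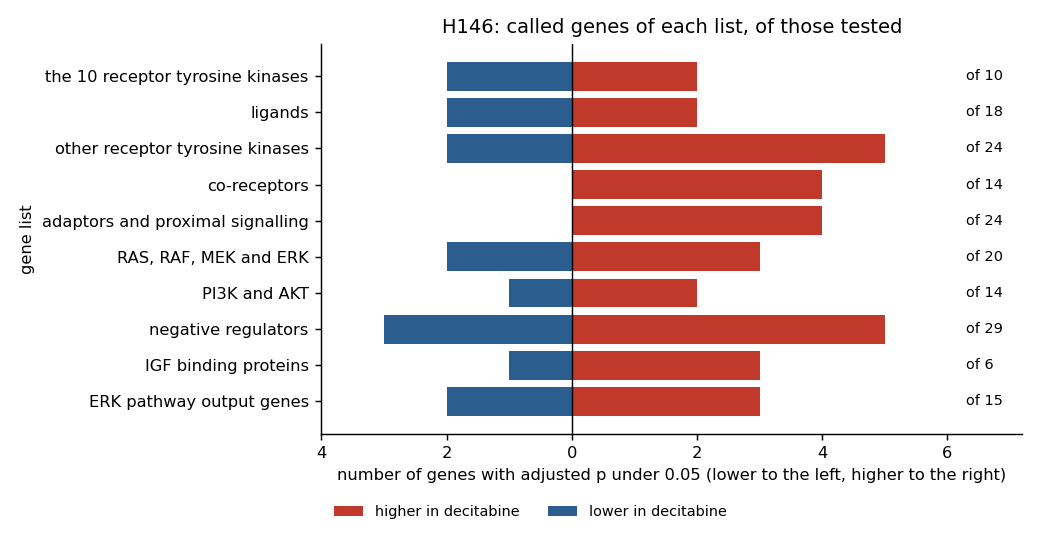
Number of called genes in each list in H146, lower in decitabine to the left in blue and higher to the right in red, with the number tested at the right edge. The 10 receptors have 2 genes on each side, and co-receptors and adaptors have called genes only on the higher side.

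In F1339 limma called 0 of the 153 tested genes of the same lists, as did edgeR and DESeq2, and 8 had an unadjusted p under 0.05. Of the abundant genes, Sdc3 had 17235 and 19649 in the decitabine libraries, against 18601 and 19374 in the vehicle libraries, Ptpn11, the phosphatase SHP2 that links receptors to RAS, had 14244 and 14983 in the decitabine libraries, against 15011 and 14123 in the vehicle libraries, and Akt1 had 18146 and 18174 in the decitabine libraries, against 19201 and 20426 in the vehicle libraries. The ligand gene Tgfa had 1627 and 1518 in the decitabine libraries, against 1745 and 1326 in the vehicle libraries, so it was well expressed in F1339. Etv4, chosen for this line after its values were seen, had 2069 and 1144 in the decitabine libraries, against 987 and 628 in the vehicle libraries (log2 difference 0.96, −0.02 to 1.95, adjusted p 0.89), with separated arms in the opposite direction to H146; the difference between the lines was not tested. Egr1, an immediate early gene, stood at 13213 and 14610.2 in decitabine, against 10849.6 and 65672 in vehicle, where a single vehicle library was far above the rest. Medians of the lists in F1339 ran between −0.22 for the IGF binding proteins and 0.34 for the co-receptors, against −0.01 over all genes.

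The pattern of ERBB3, the member with a log2 difference above 1 in H146, was set against 14128 other genes with a mean of at least 100, by the root mean square difference of centred log2 values over the 4 libraries. The nearest were VWF, the endothelial von Willebrand factor gene (0.022), the membrane protein gene LRRN4 (0.032) and the antisense RNA gene SNAP25-AS1 (0.038). VWF had 696 and 714 in decitabine, against 305 and 312 in vehicle. With 4 libraries in 2 arms, this likeness mostly measures the size of the change between arms, and the part of endothelial markers in it was not tested.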

How the data were processed

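RNA-seq was done by a commercial vendor, per the labels' protocols. The deposited tables hold a signal per gene and library, the read count over a size factor of that library, and the authors' log2 fold change, p-value and adjusted p-value. Per the submitters' processing notes, the tools were Trimmomatic 0.36, STAR 2.5.2b, featureCounts from Subread 1.5.2 and DESeq2, with GRCh38 as the only build named. The mouse build is not given in the sources used here, nor the annotation or strandedness of either line. Every value in each library (100%) is a whole multiple of 1 read within 0.001 read. The lowest total of a listed gene is 41 reads.

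A pseudocount of 1 was added before taking log2. A gene needed a value of 10 or more in 2 or more of the 4 libraries to be tested, per line, with limma 3.58.1 (treatment only, eBayes with a variance trend, in R 4.3.3), adjusted over 20783 and 16680 genes. The procedure was tested on counts simulated with the spread of each line. For H146 it called 66.7%, 82.2% and 97.1% of changes of 1.5, 2 and 4-fold. For F1339 it called 1.49%, 2.9% and 45.3% of them, so a gene that is not called in F1339 may still have changed. The simulation drew each library independently, so the split of F1339 by replicate number entered it as independent spread. Changes were placed only in genes above a minimum mean of reads, which Erbb2 and Erbb3 of F1339 do not reach. Alternatives were edgeR 4.0.16 and DESeq2 1.42.0 on recovered reads, other pseudocounts, filters and scalings, no variance trend, a block for the replicate number, and leaving out libraries in turn, where a lone library is taken to vary like the other arm. Per-sample columns left out: 0. In F1339 Ksr2 has more than 1 row, of which the first was used. Lengths and overlaps come from GENCODE 29 and promoters from RefSeq (8 of 10 receptors used).

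The members and lists were chosen with earlier results of these data known. Besides the members, the text names up to 3 called genes of each list with the highest mean (with none called, the 2 most abundant) and the nearest patterns of members with a log2 difference of at least 1. Any other gene is marked as chosen after seeing its values. In F1339, 1 gene that this rule picks is not reported here.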

Additional observations from a re-analysis of the deposited data

Results flagged for a closer look

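Of 141 pathway genes tested in both lines, 14 had decitabine libraries on opposite sides of both vehicle libraries in the 2 lines, and the difference between lines was not tested. Among the genes picked by the naming rule or called in H146 these were 5. ETV4 had a log2 difference of −0.83 in H146 and 0.96 in F1339. SPRY1, a feedback inhibitor chosen after its values were seen, had −0.35 in H146 and 0.91 in F1339. LTK had −0.38 in H146 and 0.42 in F1339, ARAF −0.29 and 0.09, and CRK 0.12 and −0.14. None of them was called in F1339. With 2 libraries per arm, arms that do not overlap are common, at 62.1% of all genes in H146 and 35.9% in F1339. The share with opposite separated arms was not computed over all genes, so the count of 14 is not read as a trait of these lists.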

How the results depend on the processing

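In H146 the main counts of 2 receptors higher and 2 lower became 1 higher in limma without a variance trend, and 1 to 2 higher and 2 to 3 lower with a library left out. The pathway counts of 30 higher and 13 lower became 10 and 5 without a variance trend, and 11 to 34 and 6 to 15 with a library left out. The other settings kept these counts within 1.5 times. In F1339 every count was 0 in the other settings and with any library left out (0 to 0), except with the replicate block. The replicate numbers are not said to pair the libraries and there are only 2 pairs. The deviations of same-numbered libraries correlated at 0.82 across 12512 genes in F1339, and at −0.07 across 14129 genes in H146. With the replicate block, F1339 has 1 receptor higher (Erbb2, adjusted p 0.0253) and 2 lower (Met, 0.0339, and Ntrk2, 0.0444), 26 and 9 pathway genes, and 4.66% and 3.29% of all genes. The direction of Erbb2 was fixed by the filter on low values. In H146 the block left the receptor calls as they were and gave 27 higher and 11 lower pathway genes. It ended the calls of TGFA (0.0544), MERTK (0.0573), CBLC (0.0514), SPRY1 (0.0819) and IGFBP6 (0.0519).

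Differences of receptors that turned sign with a library left out ranged over −0.56 to 0.28 for EGFR and −0.30 to 0.48 for NTRK2 in H146, and over −1.29 to 0.98 for Igf1r and −1.08 to 0.57 for Ret in F1339. In F1339 the same held for Akt2 (−0.12 to 0.18), Ddr1 (−0.34 to 0.20), Egr1 (−2.24 to 0.36), Igf2 (−2.21 to 3.71), Igfbp3 (−1.78 to 0.47), Igfbp5 (−0.60 to 0.16), Ptpn11 (−0.039 to 0.049), Sdc3 (−0.14 to 0.05), Sort1 (−0.071 to 0.23), Spred2 (−0.19 to 0.20) and Tgfa (−0.15 to 0.24), none of which was called. Igf2 also turned to −0.021 with edgeR and −0.032 with DESeq2, Ddr1 to 0.024 after scaling to equal totals, and Sdc3 to 0.05 with that scaling and 0.002 with the same upper quartile. The cause was not tested. Depth limits EGFR and AXL in H146 and Erbb2, Erbb3 and Egfr in F1339, where few reads stand behind a value.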
